A study of Homo sapiens with 18 samples.

Results

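The genes described here encode nuclear subunits of respiratory complexes II to V, together with somatic cytochrome c. They comprise 4 genes of complex II, 9 of complex III, 1 of cytochrome c, 10 of complex IV and 12 of complex V. They were picked by symbol, and all 36 were found among the 60252 gene IDs of the count tables. All 36 also passed the filter on low counts that left 21285 genes for testing.

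The cells were ZR-75-1, an estrogen receptor-positive cell line of luminal breast cancer. Cells with a knockdown of ADAR, which deaminates adenosine to inosine in double-stranded RNA, were compared with a control line labelled SHC. Each line was given triptolide at 100 nM, given DMSO, or left untreated for 16 h in medium with little serum, and triptolide is described by the submitters as an inhibitor of RNA polymerase II. The 6 groups were thus triptolide knockdown, DMSO knockdown, untreated knockdown, triptolide control, DMSO control and untreated control, with 3 libraries numbered as biological replicates in each. The labels name a single knockdown line, so an effect of the knockdown and any other difference between both lines cannot be told apart. They do not state whether the replicates came from separate cultures, and p-values then measure the spread between these samples.

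The respiratory chain passes electrons from metabolic fuels to oxygen and pumps protons across the inner mitochondrial membrane. Complex II, succinate dehydrogenase, also belongs to the citric acid cycle and feeds electrons to ubiquinone. Complex III passes them on to cytochrome c, and complex IV, cytochrome c oxidase, delivers them to oxygen. Complex V, ATP synthase, uses the returning protons to make ATP. Complexes III, IV and V each combine nuclear with mitochondrially encoded subunits, whereas every subunit of complex II is encoded in the nucleus.

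The libraries held between 26.7e6 and 35.7e6 counts in genes. ADAR averaged 138 ± 27.2 CPM in triptolide knockdown cells and 379 ± 77.8 CPM in triptolide control cells (SD, n = 3 each), where CPM are counts per 1000000 counts of a library, scaled by TMM. It averaged 289 ± 69.7 CPM in DMSO knockdown and 467 ± 192 CPM in DMSO control cells, and 295 ± 86.9 CPM in untreated knockdown and 479 ± 184 CPM in untreated control cells. The libraries of both lines overlapped for ADAR without triptolide and did not overlap with it. Of the luminal markers, 10 of 10 reached 1 CPM, with a summed level of 3360 to 7320 CPM per library. Leukocyte markers reached it for 1 of 5, stromal and endothelial markers for 2 of 4 and basal or mesenchymal markers for 3 of 6. Mitochondrial ribosomal RNA took 42.71 to 55.17% of the counts in triptolide libraries, against 20.18 to 37.07% in untreated and DMSO libraries, so the choice of scaling bears on every triptolide value below. In bulk RNA, fewer cells of a type and less RNA per cell cannot be told apart.

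The promoters of 3 members are shown because these genes mark the range of the triptolide response: COX6A1 had the highest change of all members averaged over both lines, UQCR11 the lowest, and SDHD the lowest of complex II. The sequences come from RefSeq on GRCh38.p14, are given 5′ to 3′ on the gene's strand, and cover 300 bases around the gene's start. Capitals mark a match to GCGCATGCG, the core of the site bound by nuclear respiratory factor 1, or to CCGGAAG, a core of sites bound by ETS factors such as GABPA. Both strands were searched. The COX6A1 window is chr12:120437863-120438162 on the plus strand, the UQCR11 window chr19:1605413-1605712 on the minus strand, and the SDHD window chr11:112086623-112086922 on the plus strand.
COX6A1: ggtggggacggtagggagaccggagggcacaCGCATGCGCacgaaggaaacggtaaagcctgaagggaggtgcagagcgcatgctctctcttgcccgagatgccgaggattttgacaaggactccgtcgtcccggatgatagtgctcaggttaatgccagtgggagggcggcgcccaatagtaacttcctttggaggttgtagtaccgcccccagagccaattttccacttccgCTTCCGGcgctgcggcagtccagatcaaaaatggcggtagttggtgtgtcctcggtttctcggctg
UQCR11: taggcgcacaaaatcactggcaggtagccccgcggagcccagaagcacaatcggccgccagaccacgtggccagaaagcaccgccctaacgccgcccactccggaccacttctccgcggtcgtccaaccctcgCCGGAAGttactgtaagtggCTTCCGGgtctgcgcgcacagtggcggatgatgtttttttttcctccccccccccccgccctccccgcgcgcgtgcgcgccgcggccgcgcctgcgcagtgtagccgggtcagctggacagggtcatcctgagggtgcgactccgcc
SDHD: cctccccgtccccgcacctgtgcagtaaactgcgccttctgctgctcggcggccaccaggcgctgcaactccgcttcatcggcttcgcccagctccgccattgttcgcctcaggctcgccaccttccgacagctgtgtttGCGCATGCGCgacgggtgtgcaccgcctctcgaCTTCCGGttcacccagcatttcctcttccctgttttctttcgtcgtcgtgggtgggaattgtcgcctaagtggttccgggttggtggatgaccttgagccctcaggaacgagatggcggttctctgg

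Promoters of 29 of the 36 members were matched in the RefSeq table. The GCGCATGCG motif occurred in 5 of these 29 (17.2%), in COX6A1, SDHD, ATP5F1C, ATP5MC2 and ATP5PF, against 2.3% of all 27305 promoter windows of the same length. The CCGGAAG motif occurred in 13 of 29 (44.8%), against 12.2% of all windows. The motif AAGATGGCG, known from YY1 sites, occurred in 3 of 29 (10.3%), against 2.1%, and GGGCGG, known from SP factor sites, in 18 of 29 (62.1%), against 48.3%. No motif overlapped another in the windows printed, except that GCGCATGCG in SDHD was matched on both strands at neighbouring positions. COX6A1, with the highest triptolide change, and SDHD, with a low one, both held the first 2 motifs, and UQCR11 held CCGGAAG on both strands. The 27305 windows were not matched to the members for expression or base composition, so the shares do not show what is particular to these genes. These matches describe the letters of the windows and show neither binding nor control.

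Members differed widely in level per kilobase of their canonical transcript. Whether the cells made transcripts of that length was not tested, and the order of members depends on it. In untreated control cells ATP5F1B, the catalytic beta subunit of ATP synthase, stood at 518 ± 45.7 CPM per kilobase (SD, n = 3). ATP5MC2, one of the 3 genes for the proton-carrying c subunit, followed at 405 ± 111, and COX4I1, a regulatory subunit of complex IV, at 274 ± 30.1 CPM per kilobase. The spreads of ATP5F1B and ATP5MC2 touched. At the low end stood ATP5PO, a peripheral stalk subunit of ATP synthase, at 13 ± 2.26 and UQCR11, a small subunit of complex III, at 7.39 ± 2.56 CPM per kilobase.

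Under triptolide, calls of members were nearly all in the higher direction when libraries were scaled by TMM, with members called in complexes II to V in both lines. Of the 36 members, 23 were higher and 0 lower in triptolide than in DMSO knockdown cells, with a median log2 change of 0.75. In control cells 15 were higher and 1 lower, with a median of 0.61. Those higher numbered 8 when the compared libraries were fitted alone and 1 without the low-count filter. Over all genes, these fits called 4956 and 8158 in either direction, against 6565 with all libraries and the filter. Among all 21285 genes tested, 16.7% were called higher and 18.9% lower in knockdown cells, and 14.9% higher and 16% lower in control cells, with medians of 0.04 and 0.03. A gene was called where the quasi-likelihood test of edgeR gave an adjusted p under 0.05 (Benjamini-Hochberg over all genes). Unless a block is named, the fit left out the replicate number, although same-numbered libraries had correlated residuals (r = 0.31 to 0.69). Differences between replicate numbers then counted as spread. Triptolide libraries lay above all DMSO libraries of their line for 27 members in knockdown cells and 20 in control cells, against 24% and 20.9% of all genes. With 1 library left out, 15 to 24 members were called higher in knockdown cells (15 without triptolide replicate 1) and 5 to 19 in control cells (5 without triptolide replicate 1 and 6 without triptolide replicate 3). Calls that held whichever library of their line's comparison was left out numbered 13 in knockdown and 4 in control cells, and SDHC, COX4I1, COX7A2 and COX7C were among both. The 15 members higher in control cells were also called higher in knockdown cells. With the replicate number as a block, 32 members were higher and 1 lower in each line, 31 of them higher in both, against 29.1% of all genes higher and 28.1% lower in knockdown and 26.1% higher and 26% lower in control cells.

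The sign of the change depended on the scaling. A change of scaling moves all genes nearly together by construction, so the distance from other genes was bound to stay about the same. When libraries were scaled to total counts, the median of all genes moved to -0.67 in knockdown and -0.60 in control cells; that of the members moved to 0.05 and -0.01. When they were scaled to the mitochondrially encoded mRNAs, all genes had medians of -1.36 and -0.79 and the members -0.69 and -0.25. Under TMM, total counts, mitochondrial mRNAs and the size factors of DESeq2, the members' median lay 0.68 to 0.72 above that of all genes in knockdown cells and 0.54 to 0.58 above it in control cells. For the same reason, the number of members above the median of all genes stayed the same in each scaling, at 34 of 36 in each line. "Higher" and "lower" in what follows are therefore relative to TMM, and 0 members were called higher in either line under total counts or mitochondrial scaling.

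**Figure D1:**
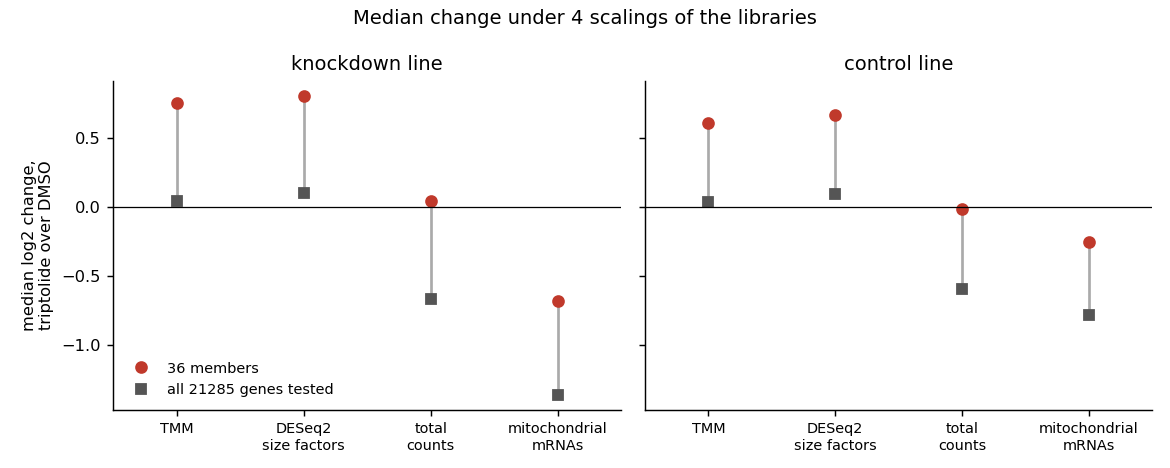
Median log2 change, triptolide over DMSO, of the 36 members (circles) and of all 21285 genes tested (squares) in each line under 4 scalings of the libraries. By construction both medians move together under a change of scaling, and the gap between them lies between 0.54 and 0.72. Both lie lower under total counts and mitochondrial mRNAs.

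Summed over all 36 members, the level was 7780, 5955 and 7224 CPM in triptolide knockdown libraries and 4345, 4089 and 4603 CPM in DMSO knockdown libraries, for replicates 1 to 3. Untreated knockdown libraries had 3846, 3969 and 4727 CPM. The 3 triptolide libraries lay above the 6 others of that line. In control cells the sums were 6971, 5013 and 6945 CPM with triptolide, 4309, 3895 and 4578 CPM with DMSO and 4626, 3874 and 4628 CPM untreated. Here too the groups did not overlap, with the triptolide library of replicate 2 nearest to the others. That library also held the highest share of mitochondrial ribosomal RNA, 55.17% of counts, and the part of that in its value was not tested. Without it, 19 members were called higher in control cells.

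**Figure D2:**
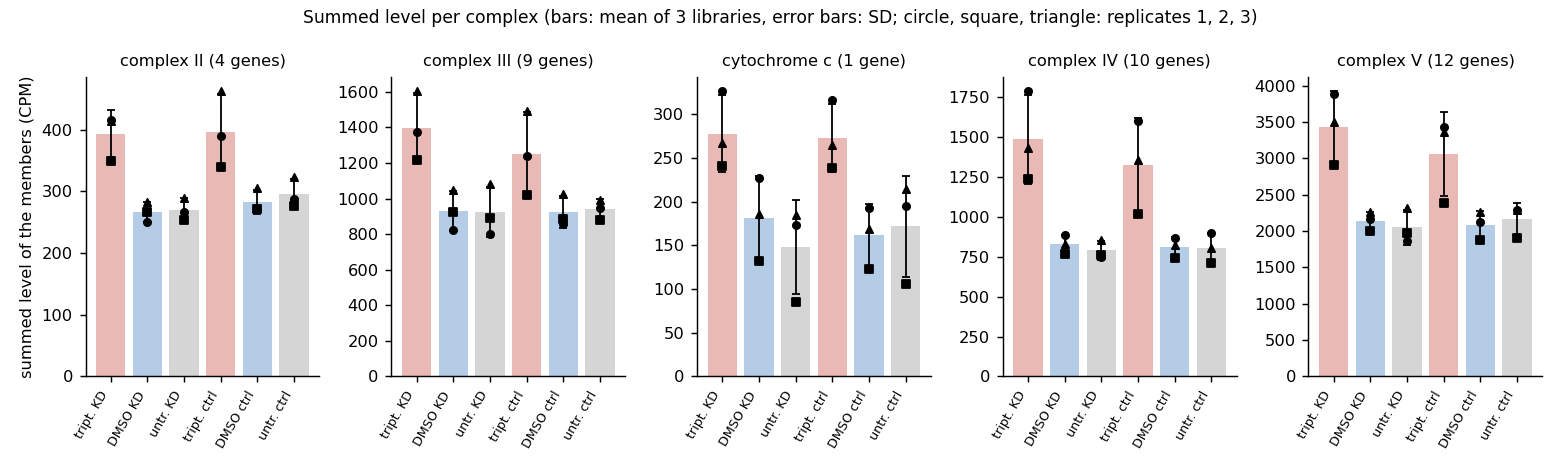
Summed level of the members of each complex in CPM on a linear axis from 0, for triptolide, DMSO and untreated cells of the knockdown line (left) and the control line (right). Bars are means and error bars SD of 3 libraries, and symbols are libraries; complex IV sums reach 1019 to 1785 CPM with triptolide and 741 to 883 CPM with DMSO.

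The ratio of these sums within replicate numbers, triptolide over DMSO, was 2.02, 1.61 and 1.73 for complex IV in knockdown cells and 1.85, 1.37 and 1.65 in control cells. For complex II it was 1.66, 1.31 and 1.46 in knockdown and 1.43, 1.25 and 1.51 in control cells. Complex III gave 1.67, 1.32 and 1.53 in knockdown and 1.44, 1.15 and 1.46 in control cells, and complex V 1.80, 1.46 and 1.55 in knockdown and 1.62, 1.28 and 1.49 in control cells. All ratios exceeded 1, and that of complex IV was above those of complexes II, III and V in each of the 6 pairs. Whether complexes differ beyond the spread of their genes was not tested.

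**Figure D3:**
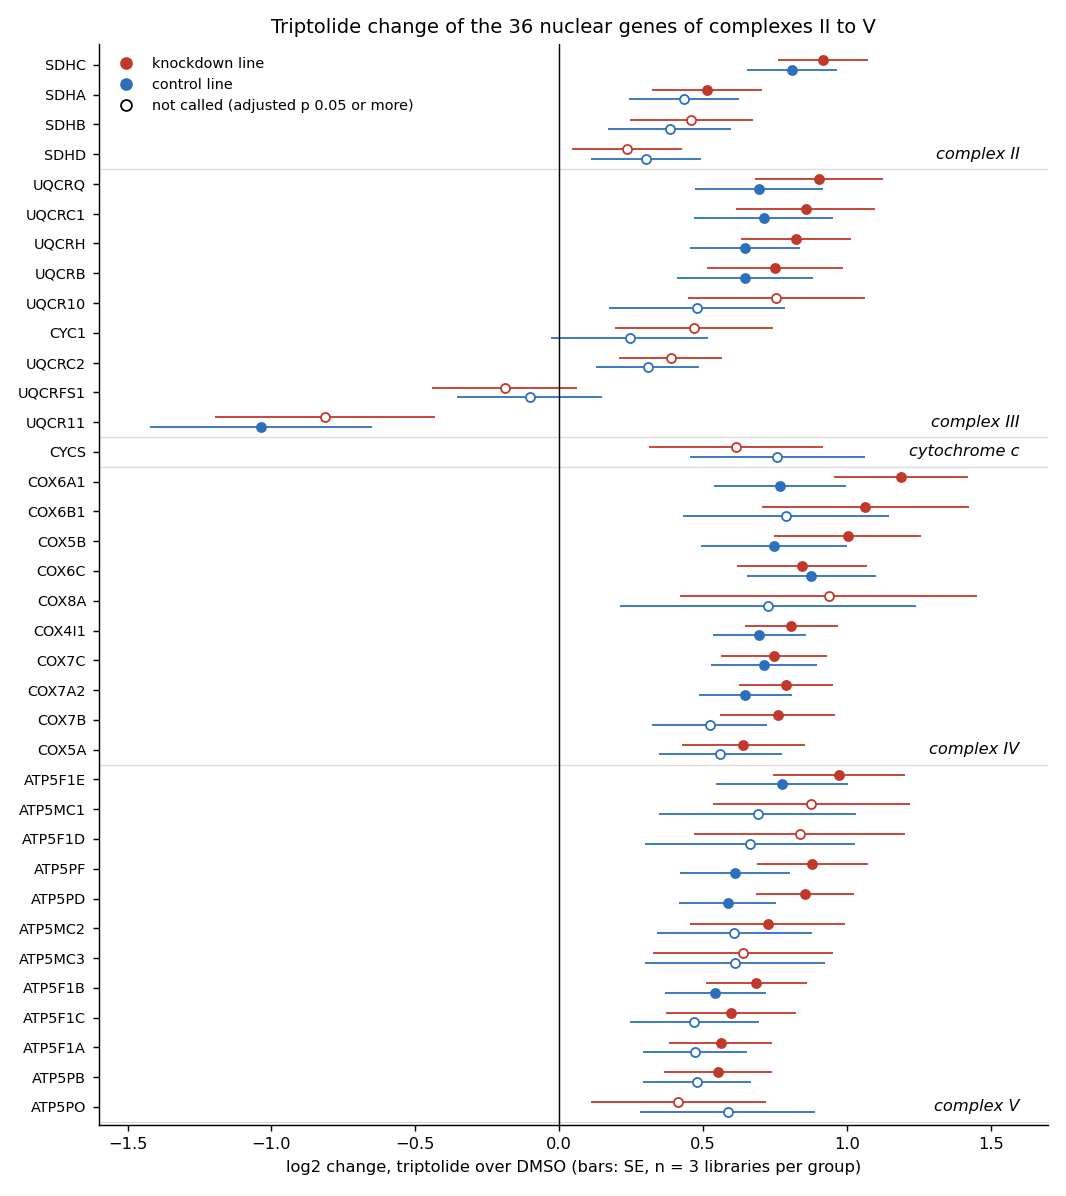
Log2 change, triptolide over DMSO, of each member in the knockdown line (red) and control line (blue) under TMM scaling, with SE bars and 3 libraries per group. Filled points were called by edgeR without the replicate block; 34 of 36 points lie right of 0 in each line, and UQCR11 and UQCRFS1 lie left of it.

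In complex II, 2 of 4 members were called higher in knockdown cells and 1 of 4 in control cells, with median changes of 0.49 and 0.41; the replicate block called 3 of 4 in each. SDHC, a membrane anchor of the complex, had 128, 104 and 103 CPM in triptolide knockdown libraries, 57.7, 61.5 and 58.5 CPM in DMSO knockdown and 74.4, 57.5 and 60 CPM in untreated knockdown libraries. In control cells it had 107, 91.7 and 94.5 CPM with triptolide, 55, 56.7 and 55.5 CPM with DMSO and 58.5, 59.7 and 63.7 CPM untreated. Every triptolide library lay above every other library, and the log2 change was 0.92 ± 0.16 (SE) in knockdown cells (adjusted p = 0.000278, edgeR, higher in 3 of 3 pairs) and 0.81 ± 0.16 in control cells (adjusted p = 0.000887, edgeR, 3 of 3 pairs). SDHC lies on chromosome 1 at 161284171 to 161332996 (GRCh37, plus strand, 6 exons).

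SDHD, the other membrane anchor, changed least in this complex. It had 57.5, 51.8 and 60 CPM in triptolide knockdown libraries, against 47.7, 52.9 and 43.1 CPM with DMSO and 29.8, 43.1 and 44.5 CPM untreated. In control cells it had 48.3, 50.4 and 50.2 CPM with triptolide, 34.4, 43.8 and 42.7 CPM with DMSO and 33.9, 48.3 and 46.9 CPM untreated. Triptolide and DMSO libraries overlapped in knockdown cells and not in control cells. Its log2 changes of 0.24 ± 0.19 in knockdown and 0.30 ± 0.19 in control cells did not pass (adjusted p = 0.349 and 0.252, edgeR). SDHD lies on chromosome 11 at 111957548 to 111990739 (GRCh37, plus strand), within a readthrough gene on the same strand that had 0 counts. Reads that fit both genes may have been tallied as ambiguous and left out, which was not tested.

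SDHA, the flavoprotein that oxidises succinate, had 137, 120 and 156 CPM in triptolide knockdown libraries, 85.2, 95.9 and 108 CPM with DMSO and 111, 96.3 and 115 CPM untreated. Control libraries had 151, 136 and 215 CPM with triptolide, 117, 117 and 139 CPM with DMSO and 125, 116 and 142 CPM untreated. The triptolide libraries lay above DMSO in knockdown cells (0.51 ± 0.19, adjusted p = 0.0432, edgeR) and overlapped with it in control cells (0.43 ± 0.19, adjusted p = 0.0928, edgeR, and 0.00586 with the replicate block). SDHA shares sequence with 4 named pseudogenes whose counts averaged 30% of the joint total, so its counts are uncertain. Named pseudogenes exist for 29 members, and only those of SDHA had over 5% of the joint counts. Reads aligned to several places were left out, 14.23 to 22.61% in triptolide and 10.22 to 15.97% in other libraries. Their part in the members' levels was not tested. SDHB, the iron-sulfur subunit, had changes of 0.46 in knockdown and 0.38 in control cells that were called with the block (adjusted p = 0.0041 and 0.0198, edgeR) and not without it (adjusted p = 0.102 and 0.185).

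In complex III, 4 of 9 members were called higher in each line, and 1, UQCR11, lower in control cells, with medians of 0.75 in knockdown and 0.48 in control cells. With the block, 7 were higher and 1 lower in knockdown cells and 6 higher and 1 lower in control cells. UQCRQ, a small subunit near the site of ubiquinone oxidation, had 68.7, 61.7 and 80.2 CPM in triptolide knockdown libraries, 33, 34.5 and 45.2 CPM with DMSO and 29.6, 34.4 and 49.7 CPM untreated. Control libraries had 59.9, 52.3 and 68 CPM with triptolide, 30.7, 34 and 46.7 CPM with DMSO and 32.7, 32.9 and 38.6 CPM untreated. No triptolide library overlapped with a DMSO library of its line, and the log2 change was 0.90 ± 0.22 in knockdown (adjusted p = 0.00437, edgeR, 3 of 3 pairs) and 0.69 ± 0.22 in control cells (adjusted p = 0.0241, edgeR, 3 of 3 pairs). The gene lies on chromosome 5 at 132202322 to 132204539 (GRCh37, plus strand, 3 exons).

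UQCR11 stood apart from the other subunits of its complex. It had 4.45, 5.37 and 8 CPM in triptolide knockdown libraries, 10.4, 6.59 and 14.4 CPM with DMSO and 9.62, 5.88 and 13.6 CPM untreated. Control libraries had 4.48, 3.38 and 6.76 CPM with triptolide, 10.9, 7.18 and 11.9 CPM with DMSO and 12.2, 5.85 and 10.8 CPM untreated. It was lower with triptolide in 3 of 3 pairs of each line, and the groups overlapped in knockdown cells and not in control cells. The log2 change was -0.81 ± 0.38 in knockdown cells (adjusted p = 0.105, edgeR, and 0.00248 with the replicate block) and -1.04 ± 0.39 in control cells (adjusted p = 0.0497, edgeR, and 0.00019 with the block). The call in control cells without the block was lost on leaving out triptolide replicate 1 or 2 or DMSO replicate 1 or 3, with changes between -1.36 and -0.84. The gene lies on chromosome 19 at 1597168 to 1605472 (GRCh37, minus strand, 3 exons). It sits within a readthrough gene on the same strand with 0 counts. Reads that fit several genes, 5.76 to 8.37% of reads per library, were tallied as ambiguous and left out. Their part in the level and change of UQCR11 was not tested. In all, 9 members overlap a gene on the same strand, among them COX6A1 and ATP5PO. UQCRFS1, the Rieske iron-sulfur protein, was the other member without a positive change, at -0.19 ± 0.25 in knockdown and -0.10 ± 0.25 in control cells, and was called in neither line with or without the block.

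The most abundant member of complex III by CPM was UQCRC2, a core protein, with 260, 302 and 295 CPM in triptolide knockdown libraries, 190, 241 and 225 CPM with DMSO and 187, 245 and 235 CPM untreated. Control libraries had 237, 287 and 286 CPM with triptolide, 184, 240 and 230 CPM with DMSO and 188, 250 and 234 CPM untreated. The change was positive in 6 of 6 pairs, at 0.39 ± 0.18 in knockdown and 0.31 ± 0.18 in control cells. It was called with the block (adjusted p = 0.00263 and 0.0144, edgeR) and not without it (adjusted p = 0.101 and 0.209). Of the others, the core protein UQCRC1, the hinge protein UQCRH and UQCRB were called higher in both lines, with changes of 0.75 to 0.86 in knockdown and 0.65 to 0.71 in control cells. Without the block, UQCR10 and CYC1, the haem-bearing cytochrome c1, were not called, at 0.76 and 0.47 in knockdown and 0.48 and 0.24 in control cells. With it, UQCR10 was called in both lines (adjusted p = 0.00127 in knockdown and 0.0425 in control cells, edgeR) and CYC1 in knockdown cells alone (adjusted p = 0.0318, against 0.343 in control cells).

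CYCS encodes somatic cytochrome c, which carries electrons between complexes III and IV and triggers apoptosis once released. It had 326, 241 and 266 CPM in triptolide knockdown libraries, 227, 132 and 186 CPM with DMSO and 173, 85.7 and 185 CPM untreated. Control libraries had 316, 239 and 264 CPM with triptolide, 192, 123 and 169 CPM with DMSO and 195, 106 and 214 CPM untreated. The triptolide libraries lay above the DMSO libraries in both lines, and those of replicate 2 were the lowest of each group. The log2 change was 0.61 ± 0.30 in knockdown (adjusted p = 0.124, edgeR, and 0.0016 with the replicate block) and 0.76 ± 0.30 in control cells (adjusted p = 0.0668, and 0.000333 with the block).

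Complex IV was called most often, with 9 of 10 members higher in knockdown and 6 of 10 in control cells, at medians of 0.82 and 0.72, and 10 of 10 in each line with the block. COX6A1, the ubiquitous form of subunit VIa, had 68.3, 51.7 and 63 CPM in triptolide knockdown libraries, 24.2, 27.4 and 28.7 CPM with DMSO and 28.4, 25.6 and 28.4 CPM untreated. Control libraries had 61.9, 26.5 and 51.3 CPM with triptolide, 28.7, 25.7 and 27.8 CPM with DMSO and 26.9, 24.9 and 27 CPM untreated. In control cells the triptolide library of replicate 2 stayed among the DMSO libraries, and all other triptolide libraries lay far above them. The log2 change was 1.19 ± 0.23 in knockdown (adjusted p = 0.000827, edgeR, 3 of 3 pairs) and 0.77 ± 0.23 in control cells (adjusted p = 0.0175, edgeR, 3 of 3 pairs). In control cells the change was 0.50 without triptolide replicate 1 and 1.04 without triptolide replicate 2, and the call was lost without triptolide replicate 1 or 3 or DMSO replicate 2 or 3. The gene lies on chromosome 12 at 120875893 to 120878540 (GRCh37, plus strand, 3 exons).

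COX5A, a matrix-side subunit, had the smallest change of complex IV averaged over both lines. It had 82.7, 90.6 and 116 CPM in triptolide knockdown libraries, 53.8, 61.2 and 70.7 CPM with DMSO and 56.8, 56.2 and 74.5 CPM untreated. Control libraries had 74.7, 74 and 106 CPM with triptolide, 46.8, 59.7 and 66.4 CPM with DMSO and 48.5, 60.7 and 67.8 CPM untreated. Triptolide libraries again lay above those with DMSO, at 0.64 ± 0.21 in knockdown (adjusted p = 0.027, edgeR) and 0.56 ± 0.21 in control cells (adjusted p = 0.0555, edgeR, and 0.000401 with the block).

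COX4I1, the most abundant of the complex, had 420, 326 and 375 CPM in triptolide knockdown libraries, 220, 202 and 219 CPM with DMSO and 200, 207 and 241 CPM untreated. Control libraries had 358, 296 and 355 CPM with triptolide, 215, 193 and 216 CPM with DMSO and 232, 186 and 208 CPM untreated. The groups did not overlap, and the changes were 0.81 ± 0.16 in knockdown (adjusted p = 0.000993, edgeR) and 0.69 ± 0.16 in control cells (adjusted p = 0.00345, edgeR). COX5B, COX6C, COX7A2 and COX7C were likewise called in both lines, with changes between 0.75 and 1.00 in knockdown and between 0.65 and 0.88 in control cells. COX6B1 and COX7B were called in knockdown cells alone without the block, at 1.06 and 0.76, against 0.79 and 0.52 in control cells, and the difference between lines was not called for either. COX8A, at 0.94 in knockdown and 0.73 in control cells, was called with the block alone.

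**Figure D4:**
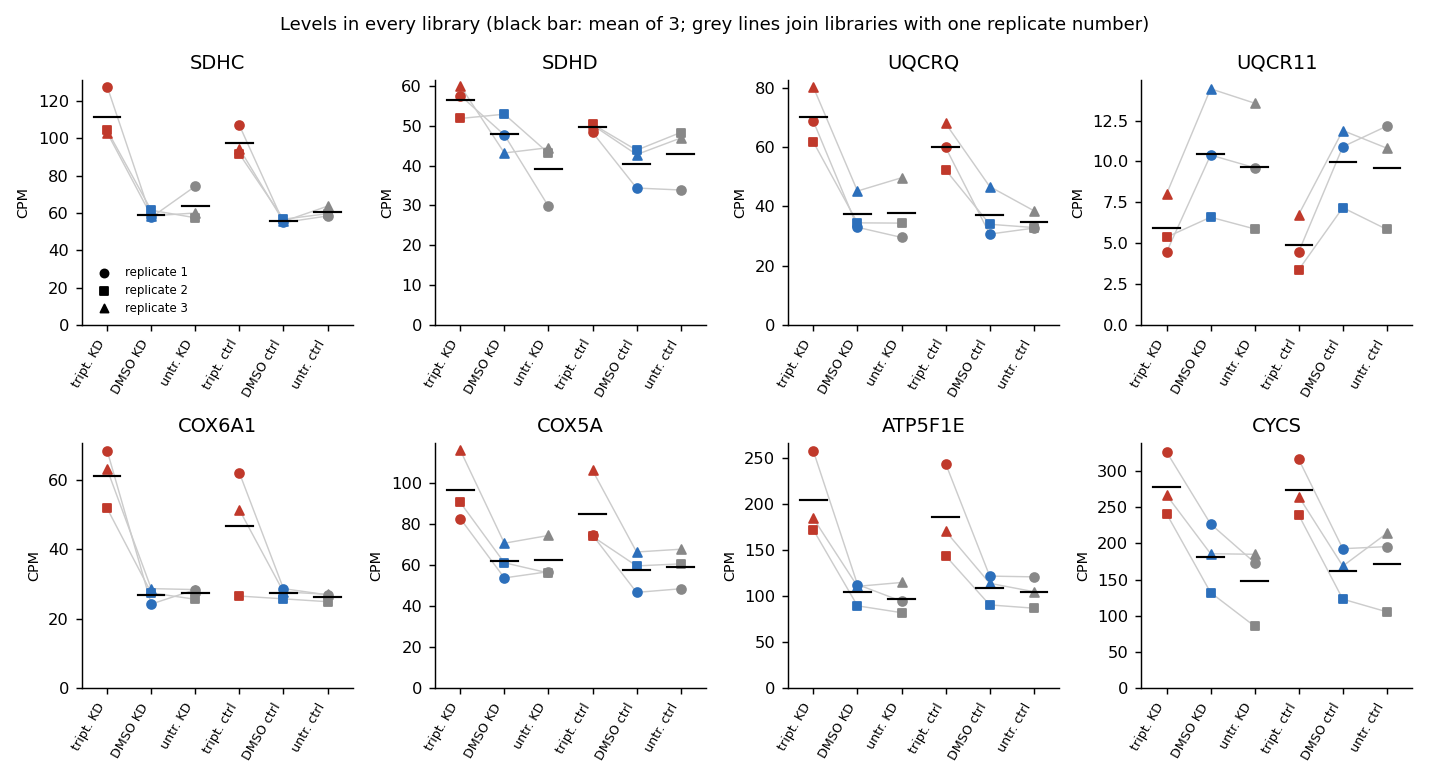
Level in CPM of 8 members in every library, on linear axes from 0, for triptolide (red), DMSO (blue) and untreated (grey) cells of the knockdown line (left, KD) and control line (right). Circles, squares and triangles are replicates 1, 2 and 3, black bars are means, and grey lines join libraries with one number; the COX6A1 square of triptolide control cells lies at 26.5 CPM, beside the DMSO libraries.

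In complex V, 8 of 12 members were called higher in knockdown and 4 of 12 in control cells, with medians of 0.70 and 0.60, and 11 and 12 of 12 with the block. ATP5F1E, the epsilon subunit of the central stalk, had 257, 172 and 184 CPM in triptolide knockdown libraries, 113, 89.6 and 111 CPM with DMSO and 94.6, 82.2 and 115 CPM untreated. Control libraries had 244, 144 and 170 CPM with triptolide, 122, 90.6 and 114 CPM with DMSO and 121, 87 and 105 CPM untreated. Triptolide libraries lay above all others, at 0.97 ± 0.23 in knockdown (adjusted p = 0.00324, edgeR) and 0.77 ± 0.23 in control cells (adjusted p = 0.0156, edgeR).

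ATP5F1B had 1545, 1190 and 1387 CPM in triptolide knockdown libraries, 817, 848 and 900 CPM with DMSO and 764, 838 and 931 CPM untreated. Control libraries had 1351, 967 and 1394 CPM with triptolide, 833, 786 and 931 CPM with DMSO and 937, 821 and 975 CPM untreated. The triptolide groups lay above the DMSO groups, at 0.69 ± 0.18 in knockdown (adjusted p = 0.00595, edgeR) and 0.54 ± 0.18 in control cells (adjusted p = 0.0266, edgeR).

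ATP5PO, the subunit that confers oligomycin sensitivity, was scarce and variable. It also overlaps a gene on the same strand with 0 counts, and the part of ambiguous reads in its level was not tested. It had 18.9, 9.15 and 13.1 CPM in triptolide knockdown libraries, 14.2, 7.45 and 9.22 CPM with DMSO and 8.18, 10.1 and 9.2 CPM untreated. Control libraries had 19.8, 13.4 and 12.7 CPM with triptolide, 12.4, 7.02 and 11.1 CPM with DMSO and 10.5, 7.89 and 11.1 CPM untreated. The groups overlapped in knockdown cells, where the change of 0.41 ± 0.30 did not pass (adjusted p = 0.302, edgeR), and did not in control cells, where 0.59 ± 0.30 was called with the block alone (adjusted p = 0.156, edgeR, and 0.0184 with the block).

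ATP5MC1, ATP5MC2 and ATP5MC3 encode the same mature c subunit behind different import sequences. ATP5MC1 had 182, 94.8 and 139 CPM in triptolide knockdown libraries and 77.2, 62.2 and 87 CPM with DMSO, against 170, 70.8 and 143 CPM with triptolide and 95.3, 62.6 and 80.6 CPM with DMSO in control cells. ATP5MC2 had 583, 366 and 476 CPM in triptolide knockdown libraries and 364, 220 and 279 CPM with DMSO, against 491, 268 and 436 CPM with triptolide and 323, 216 and 245 CPM with DMSO in control cells. ATP5MC3 had 176, 96.6 and 132 CPM in triptolide knockdown libraries and 107, 66.5 and 86.6 CPM with DMSO, against 172, 90.4 and 133 CPM with triptolide and 107, 60.3 and 91.6 CPM with DMSO in control cells. Replicate 2 was lowest for each gene in these groups. Per kilobase, ATP5MC2 supplied 74.1 ± 1.7% of the 3 genes' joint level in triptolide knockdown cells and 74.9 ± 3% in DMSO knockdown cells (SD, n = 3). In control cells it supplied 72.1 ± 2.3% with triptolide and 72.6 ± 1.7% with DMSO, and untreated groups averaged 71.9 and 72.1%, so its share moved by less than the spread. ATP5MC3 supplied 5.1 ± 0.2% in triptolide knockdown cells and 5.5 ± 0.1% in DMSO knockdown cells, without overlap of the libraries, and 5.8 ± 0.4% with triptolide and 5.8 ± 0.7% with DMSO in control cells. These differences in share were not tested. The shares rest on 1 canonical transcript per gene, of 632 bases for ATP5MC2, 646 for ATP5MC1 and 2587 for ATP5MC3. Without division by length, ATP5MC3 averaged 101 CPM over all libraries and ATP5MC1 96.8 CPM. Which transcripts the cells made was not tested.

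ATP5PF, a coupling subunit of the peripheral stalk, and GABPA, the DNA-binding part of an ETS factor known to act on respiratory genes, overlap on opposite strands of chromosome 21. ATP5PF was higher with triptolide, at 0.88 ± 0.19 in knockdown (adjusted p = 0.00191, edgeR) and 0.61 ± 0.19 in control cells (adjusted p = 0.0223, edgeR). GABPA was lower, at -1.21 ± 0.34 in knockdown (adjusted p = 0.00965, edgeR) and -1.20 ± 0.34 in control cells (adjusted p = 0.0118, edgeR). How the counting treated strand is not given in the sources used here, and reads from both genes cannot be told apart without it. The same limit holds for other members, as 18 overlap another gene. Among them COX4I1, COX6C, ATP5PB and ATP5PD overlap EMC8, VPS13B, WDR77 and KCTD2 on the opposite strand. ATP5PD was also called in both lines, whereas ATP5F1A, ATP5F1C, ATP5PB and ATP5MC2 were called in knockdown cells alone without the block and in both lines with it.

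Gene lists around the members are described by counts and medians, against the shares of all genes given above. A list of 10 other subunits and associated proteins of complexes III to V held UQCRHL, COX7A2L, NDUFA4, ATP5ME, ATP5MF, ATP5MG, ATP5MJ, ATP5MK, ATP5IF1 and DMAC2L. Of these 10, 7 were higher and 0 lower in knockdown and 6 higher and 0 lower in control cells, with medians of 0.83 and 0.56. Of 37 nuclear subunits of complex I, 19 were higher and 1 lower in knockdown and 10 higher and 1 lower in control cells, with medians of 0.65 and 0.51. The mitochondrially encoded partners of the members, MT-CYB, MT-CO1, MT-CO2, MT-CO3, MT-ATP6 and MT-ATP8, were called higher for 6 of 6 in knockdown and 3 of 6 in control cells, with medians of 1.51 and 1.12. Together they summed to 16430, 11690 and 18050 CPM in triptolide knockdown libraries and 5953, 6011 and 5078 CPM with DMSO, without overlap. Control libraries summed to 13450, 11180 and 26500 CPM with triptolide and 6790, 9216 and 10490 CPM with DMSO.

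Assembly factors build the complexes without staying in them. Of 36 tested of 38, 5 were higher and 8 lower in knockdown and 3 higher and 8 lower in control cells, with medians of 0.18 and 0.20, beside 16.7% of all genes higher and 18.9% lower in knockdown and 14.9% higher and 16% lower in control cells. COX10, which acts in a step of making the haem of complex IV, was lower, at -1.86 ± 0.23 in knockdown (adjusted p = 1.41e-05, edgeR) and -1.64 ± 0.23 in control cells (adjusted p = 5.93e-05, edgeR). SURF1, a complex IV assembly factor, was higher, at 0.84 ± 0.18 in knockdown (adjusted p = 0.00171, edgeR) and 0.59 ± 0.18 in control cells (adjusted p = 0.018, edgeR). Of 10 regulators tested of 11, 0 were higher and 6 lower in knockdown and 1 higher and 4 lower in control cells, with medians of -0.85 and -0.71. The transcription factor NRF1 averaged 3.77 ± 0.62 CPM in triptolide knockdown and 9.72 ± 2.34 CPM in DMSO knockdown cells, and 3.99 ± 0.44 CPM in triptolide control and 10.1 ± 1.91 CPM in DMSO control cells (SD, n = 3). TFAM, which packages mitochondrial DNA and helps start its transcription, was the regulator called higher, in control cells, at 0.46 (adjusted p = 0.0496, edgeR).

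**Figure D5:**
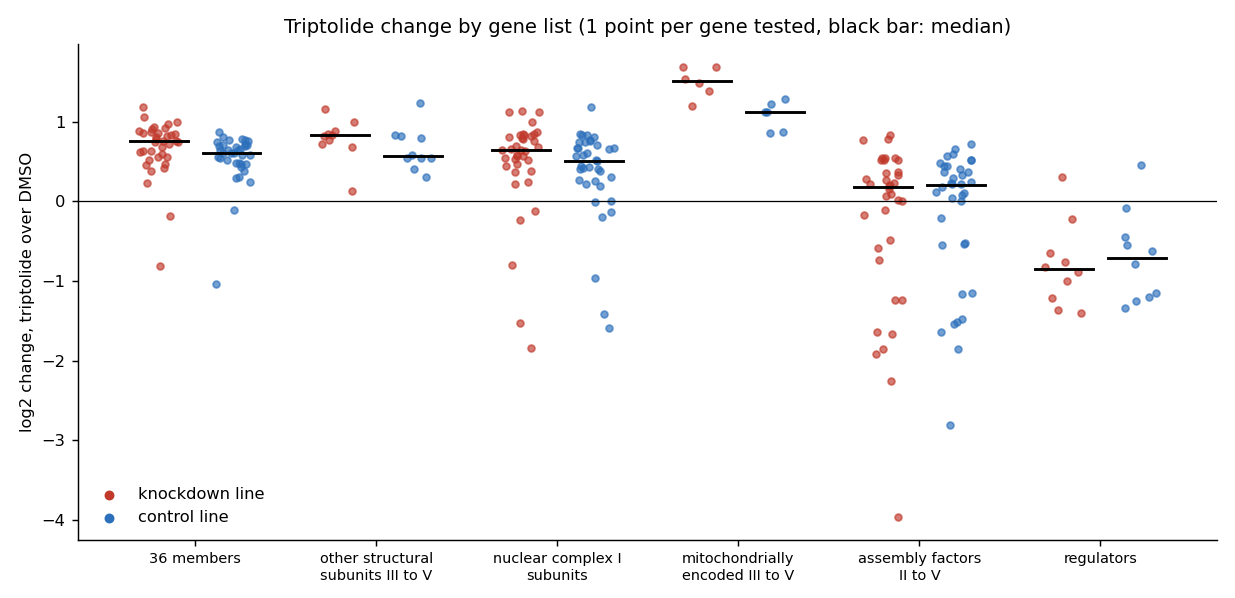
Log2 change, triptolide over DMSO under TMM scaling, of each gene tested in 6 lists, in the knockdown line (red) and the control line (blue), with list medians as black bars. The members, the other subunits and associated proteins, and the complex I subunits centre between 0.51 and 0.83. Mitochondrially encoded subunits centre at 1.51 and 1.12, and regulators at -0.85 and -0.71.

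Many members have short transcripts, with 23 of 36 at up to 1500 bases. Their canonical transcripts had a median of 1137 bases, against 3300 bases for 14637 protein-coding genes tested. Among the 2018 of those genes with transcripts of up to 1500 bases, 26.3% were higher in knockdown and 19.2% in control cells, with median changes of 0.42 and 0.33. The 23 members of that length had medians of 0.81 in knockdown and 0.65 in control cells; the 13 longer members had 0.64 and 0.54, against -0.11 and -0.08 for 12619 longer genes. Across the 36 members, transcript length and change had a Spearman rho of -0.48 in knockdown and -0.34 in control cells, against -0.19 and -0.15 across the 14637 genes, a description only, since the genes share libraries. Lengths are those of 1 canonical transcript per gene. Some longer members have short coding parts, such as UQCRB (8459 bases, 333 coding) and ATP5F1E (3610 bases, 153 coding). Whether the cells made transcripts of these lengths, and the part of length in the members' change, was not tested.

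Levels of the members also differed between replicate numbers. In the 12 untreated and DMSO libraries, 25 members were lowest in replicate 2, 11 in replicate 1 and 0 in replicate 3, against 36.2%, 33.8% and 30% of all genes tested. The ratio of the highest to the lowest replicate mean ran from 1.04 in SDHC and ATP5PD to 2.2 in COX8A. COX8A averaged 71 CPM in replicate 1, 32.3 CPM in replicate 2 and 42.7 CPM in replicate 3, and its 4 untreated and DMSO libraries of replicate 2 lay below the other 8. This held for 9 of 36 members, against 9.79% of all genes tested, among them UQCR11, CYCS, ATP5MC1 and ATP5MC3.

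Knockdown and control cells did not differ by a call in any member. In edgeR, 0 of 36 were called under triptolide, DMSO or no treatment, against 0.0658%, 0.094% and 0.0987% of all genes. An unadjusted p under 0.05 was reached by 0 members in these comparisons, against 642, 507 and 568 of all 21285 genes. With the replicate block 0 members were called, against 0.644%, 0.606% and 0.578% of all genes, and the DESeq2 Wald test called 0 as well. With the block, 3, 1 and 1 members had an unadjusted p under 0.05, against 1770, 1523 and 1518 of all 21285 genes. Member medians were 0.16 under triptolide, 0.01 with DMSO and -0.06 untreated. Under triptolide 33 of 36 changes were positive, against 43.7% of all genes, but the median was 0.005 without the triptolide control library of replicate 2.

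SDHA came closest to a knockdown difference. In 9 of 9 pairs of equal number the knockdown library had the lower level, and the libraries of both lines did not overlap with DMSO or untreated. For such lower, non-overlapping libraries the background was 3.27% of all genes with DMSO and 2.49% untreated. The log2 changes were -0.28 ± 0.19 under triptolide, -0.36 ± 0.19 with DMSO and -0.25 ± 0.19 untreated, each with an adjusted p of 1 in edgeR, and with the replicate block the DMSO change had an adjusted p of 0.292. The pseudogene counts named above bear on this gene, and their part in the difference was not tested.

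The triptolide change did not differ between lines by a call in any member. The interaction of knockdown and triptolide called 0 of 36 in edgeR, with and without the replicate block, against 0% of all genes without it and 0.0047% with it. The DESeq2 Wald test called 0, and 0 members had an unadjusted p under 0.05 in either edgeR fit. Of all 21285 genes, 203 had such a p without the block and 845 with it. The median interaction of the members was 0.14 and was positive for 31 of 36, against 47.5% of all genes. With 1 library left out the median ran from -0.01 (without triptolide control replicate 2) and 0.03 (without triptolide knockdown replicate 1) up to 0.24 (without triptolide control replicate 3), and it was 0.04 under total counts and -0.45 under mitochondrial scaling. Both triptolide comparisons share no library. DMSO against untreated called 0 members in either line, against 0% of all genes, with and without the block in edgeR, and 0 in DESeq2. Without the block 0 members had an unadjusted p under 0.05, against 208 of 21285 genes in knockdown and 121 in control cells. With it 1 did in knockdown cells, SDHD at 0.31 ± 0.14 (adjusted p = 1, edgeR), and 0 in control cells. Of all 21285 genes, 747 had such a p with the block in knockdown cells and 274 in control cells. SDHD was higher with DMSO in 2 of 3 pairs. Member medians were 0.04 in knockdown and -0.03 in control cells.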

How the data were processed

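Per the labels, total RNA was made into libraries with a stranded kit. The authors deposited raw counts per gene, 1 library per file and without normalization. Per the submitters' processing notes, the tools were STAR 2.4.2a, HTSeq 0.6.1, DESeq2 1.4.5 and R 3.1, with hg19. IDs were matched to GENCODE release 44 on GRCh37 (97.7%), and 5 tallies of reads not assigned to a gene, 24.87 to 35.39% of reads, were left out. With R 4.3.3 and edgeR 4.0.16, TMM scaling and two-sided quasi-likelihood tests were run in 1 fit of 18 libraries (12 residual degrees of freedom), on 21285 genes passing its low-count filter, in 8 comparisons, with Benjamini-Hochberg adjustment over all genes (0.05). SE is the log2 change divided by the square root of F. The code was tested on simulated data. Same-numbered libraries had residuals correlating at r = 0.31 to 0.69 (45 pairs), others at -0.52 to 3.8e-05 (90 pairs), so the numbers pair libraries, as seen from the data. Within groups, no library copied another (lowest chi-square per degree of freedom 62), and libraries of different groups were not compared in this way. Alternatives were the replicate block, other scalings, no filter, DESeq2 1.42.0, fits of the compared libraries alone, and leaving out each library. Members and lists were chosen with earlier results of these data known. Values in every library are given for the members of each complex with the highest and lowest triptolide change averaged over lines, the most abundant, CYCS and the c subunit genes.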

Additional observations from a re-analysis of the deposited data

Results flagged for a closer look

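Of the members, 4 had knockdown effects of opposite sign in different treatments, in every pair of libraries. The share of all genes with such a pattern was not counted, so the number cannot be set against a background. Values are geometric means of the knockdown over control ratio in 3 pairs. For ATP5F1E the ratio was 1.11 under triptolide and 0.961 with DMSO. For ATP5PD it was 1.14 under triptolide and 0.937 with DMSO, and 1.14 under triptolide and 0.95 untreated. The interaction of knockdown and triptolide, which tests the difference between triptolide and DMSO, called neither gene (edgeR, 0 of 36 members). For SDHD it was 1.19 with DMSO and 0.907 untreated, and 1.14 under triptolide and 0.907 untreated. For CYCS it was 1.12 with DMSO and 0.854 untreated, and 1.02 under triptolide and 0.854 untreated. Its pairs under triptolide, at 1.03, 1.01 and 1.01, lay close to 1. The differences from untreated cells were not tested.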

How the results depend on the processing

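Calls of members between knockdown and control, for the interaction and for DMSO against untreated stayed at 0 under every alternative run. Under triptolide, the replicate block moved the members called higher from 15 to 32 in control cells and from 23 to 32 in knockdown cells. It moved those called lower from 0 to 1 in knockdown cells. Scaling to total counts gave 0 higher and 3 lower in knockdown and 0 higher and 2 lower in control cells. Scaling to mitochondrial mRNAs gave 0 higher and 9 lower in knockdown and 0 higher and 2 lower in control cells. Over all genes, total counts gave 10025 calls of either direction in knockdown and 9186 in control cells. Mitochondrial scaling gave 12240 and 7052, and TMM 7589 and 6565. Without the low-count filter, the number called lower in knockdown cells moved from 0 to 1, and the number called higher in control cells from 15 to 1. The number higher in knockdown cells without the filter is not given here. With the compared libraries alone, 8 were higher in control cells, and with DESeq2 size factors 0 were lower there. Over all genes, calls of either direction without the filter were 9163 in knockdown and 8158 in control cells. In control cells they were 4956 with the compared libraries alone and 6624 with DESeq2 size factors. Leaving out 1 library gave 15 to 24 higher and 0 lower in knockdown cells, with 15 without triptolide knockdown replicate 1, and 5 to 19 higher and 0 to 1 lower in control cells, with 5 without triptolide control replicate 1, 6 without triptolide control replicate 3, 8 without DMSO control replicate 1 or 2 and 9 without DMSO control replicate 3. The median change of members ranged over these from 0.61 to 0.83 in knockdown and 0.49 to 0.76 in control cells. Calls over all genes, of either direction, were 6075 without triptolide knockdown replicate 1. They were 5137 without triptolide control replicate 1 and 6097 without triptolide control replicate 3. Of the 36 changes, 34 were positive in each line under TMM, 20 in knockdown and 17 in control cells under total counts, and 0 and 2 under mitochondrial mRNAs. Among changes called under TMM or under the other scaling, those that turned negative are listed; under total counts they were found in knockdown cells (ATP5F1A -0.16, ATP5F1B -0.033, ATP5F1C -0.10, ATP5MC2 -0.015, ATP5PB -0.16, COX5A -0.066, SDHA -0.20, SDHD -0.47) and control cells (ATP5F1B -0.077, ATP5PD -0.02, ATP5PF -0.016), and under mitochondrial mRNAs in knockdown cells (ATP5F1A -0.88, ATP5F1B -0.75, ATP5F1C -0.83, ATP5F1E -0.46, ATP5MC2 -0.72, ATP5PB -0.89, ATP5PD -0.57, ATP5PF -0.51, COX4I1 -0.63, COX5A -0.80, COX5B -0.46, COX6A1 -0.26, COX6B1 -0.39, COX6C -0.59, COX7A2 -0.63, COX7B -0.69, COX7C -0.66, CYC1 -1.01, SDHA -0.93, SDHB -0.99, SDHC -0.50, SDHD -1.18, UQCRB -0.68, UQCRC1 -0.60, UQCRC2 -1.01, UQCRH -0.62, UQCRQ -0.55) and control cells (ATP5F1B -0.32, ATP5F1E -0.054, ATP5PD -0.27, ATP5PF -0.17, COX4I1 -0.14, COX5B -0.15, COX6A1 -0.13, COX7A2 -0.16, COX7C -0.094, UQCRB -0.15, UQCRC1 -0.21, UQCRH -0.22, UQCRQ -0.12). By construction such scalings move all genes together.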
